A study of Homo sapiens with 33 samples.

Results

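NF-kB is a family of dimeric transcription factors. The genes described here are its 5 subunits (NFKB1, NFKB2, RELA, RELB and REL), the inhibitory or modulating IkB proteins NFKBIA and NFKBIZ, the negative regulator TNFAIP3, and the target genes TNFAIP2 and BIRC3. They were chosen by name, 10 of the 58302 genes in the deposited matrix. All 10 reached 100 CP20M (counts per 20000000 reads, the deposited scale) in at least 1 library and are among the 17803 genes tested. The RNA-seq data cover 33 libraries of 6 established cell lines. H2052, H2452, H28 and MSTO-211H are malignant pleural mesothelioma (MPM) lines that are sensitive to palbociclib, an inhibitor of the cell cycle kinases CDK4 and CDK6. The resistant lines are MPP89, an MPM line in which RB1 is mutated, and MeT-5A, SV40-immortalized mesothelial cells. Cells received palbociclib at 1 µM or, as control, DMSO at 0.1%, over 9 or 10 days, in 2 experiments of H2052, 3 each of H2452, H28 and MSTO-211H, 2 of MPP89 and 1 of MeT-5A. In 1 experiment of each sensitive line the drug was then washed out for 48 h, and 1 further MeT-5A library was untreated.

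In resting cells NF-kB dimers are held in the cytoplasm by IkB proteins, of which IkBα, the product of NFKBIA, is the best known. Signals from receptors such as those for TNF or IL-1 activate the IKK kinase, IkBα is degraded, and dimers such as p50 (from NFKB1) with RELA enter the nucleus. NF-kB then induces its own brakes, among them NFKBIA itself and TNFAIP3, which encodes the ubiquitin-editing enzyme A20, so that the response is limited in time. A slower, non-canonical arm processes the NFKB2 product to p52, which pairs with RELB. In cells that have entered senescence, NF-kB is a known driver of secreted cytokines and chemokines.

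Most of these genes carry an NF-kB motif in their own promoter. RefSeq promoter windows (GRCh38.p14, 250 bases before to 50 after a transcription start) were at hand for 9 of the 10 genes in 14 windows, and RELB had no entry. The 10-base kB consensus, searched on both strands, was present in a window of 7 of these 9 genes, and in 11.3% of all 35116 windows and 13.3% of all 27305 genes. RELA and TNFAIP2 held no match in their windows. A match describes the letters and is not evidence of binding. The sequences shown are those of the genes whose values are followed through the results, 5′ to 3′ on the strand of the gene, with the matches in capitals.
NFKB1 (chr4:102501290-102501339, plus strand): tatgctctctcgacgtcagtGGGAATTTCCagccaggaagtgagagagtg
REL (chr2:60881507-60881557, plus strand): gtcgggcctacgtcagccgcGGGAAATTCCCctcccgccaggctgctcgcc
NFKBIA (chr14:35404801-35404850, minus strand): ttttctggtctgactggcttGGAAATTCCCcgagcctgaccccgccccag
NFKBIZ (chr3:101827747-101827796, plus strand): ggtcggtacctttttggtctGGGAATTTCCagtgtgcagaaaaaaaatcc
TNFAIP3 (chr6:137867172-137867233, plus strand): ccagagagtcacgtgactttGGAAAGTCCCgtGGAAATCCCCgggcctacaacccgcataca
The motif began 49 bases before the start in NFKB1, 81 in NFKBIA and 223 in NFKBIZ. In REL the capitals cover matches that begin 47 and 46 bases before the start and overlap. TNFAIP3 held 2 matches close together, at 67 and 55 bases before its start. NFKB2 and BIRC3 also held matches.

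Each column of the matrix adds up to between 20007662 and 20021400 CP20M, so depth cannot be read from the totals. From the whole numbers that a column skips it was estimated for 23 libraries, at 12670000 to 19730000 reads, and the other 10 libraries skipped none. In the shallowest of these, 1 read is worth 1.58 CP20M. KRT8 and KRT18, keratins of mesothelial cells, were present in every line (at least 3480 and 1497 CP20M), while MSLN was at 1 to 15 CP20M and CALB2 at 0 to 2 in H28, WT1 at 0 to 2 in MeT-5A, and PDPN at 0 to 4 in H28 and MSTO-211H. KRT19 was at most 13 CP20M in MeT-5A, MSTO-211H and MPP89. The T cell marker CD3E was 0 in every library, and the pan-leukocyte marker PTPRC was at most 6 CP20M outside MPP89, where it reached 42. Among other leukocyte markers, CD68 was at 123 to 1844 CP20M across the lines, and CD14 reached 1130 in H2452. Of the fibroblast markers, PDGFRA reached 1792 CP20M in H2052, PDGFRB 2912 in H2452, DCN 3002 in MeT-5A and LUM 1907 in MPP89. Replicates are separate experiments with a single line, so the p-values within a line measure the spread between these experiments. In the fit over the 11 pairs the spread also holds differences between lines, with pairs of the same line counted separately. The washout fit has 1 experiment per line, so its p-values measure the spread between lines. In bulk RNA, fewer cells with a transcript and less transcript per cell cannot be told apart. Values were compared as log2(CP20M + 10) with limma, with the experiment as a block except for levels with DMSO. A gene was called when its fold change was above 1.5 in either direction and its FDR, adjusted over all 17803 genes, was under 0.05. Over all genes and the 11 pairs of the sensitive lines, 994 were called higher and 1669 lower with the deposited scaling, against 1759 higher and 920 lower after median-of-ratios scaling. The median log2 difference of all genes moved from -0.11 to 0.06 between these scalings, so small differences below 0 depend on the scale.

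Among the subunits, NFKB1 and REL were lower after palbociclib in the sensitive lines, whereas NFKB2, RELA and RELB showed no difference that passed the test. The same 11 pairs had TNFAIP3 at more than double its DMSO level and NFKBIA at a lower level. Of the 10 genes, 1 was called higher, against 5.58% of all genes, and 0 were called lower, against 9.37%. By FDR alone 1 gene was higher and 3 were lower, where 14.6% and 33.7% of all genes passed. At an unadjusted p under 0.05 in limma there were 5 of 10. No share of all genes is given beside such counts of the 10 genes. The same holds for pairs in 1 direction and for groups without overlap below, which are descriptions.

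NFKB1 encodes p105, the precursor of p50. In H2052 it was at 1249 and 1336 CP20M with DMSO and at 855 and 903 with palbociclib. In H2452 it was at 1020, 1052 and 1083 with DMSO and at 764, 909 and 856 with palbociclib. The groups did not overlap in either line. H28 had 1119, 1087 and 1189 with DMSO and 901, 829 and 1001 with palbociclib. MSTO-211H, which had the highest level of all lines, had 2120, 2867 and 2144 with DMSO and 1541, 1723 and 1590 with palbociclib. NFKB1 was thus lower in 11 of 11 pairs, with no overlap within any sensitive line. The log2 difference was -0.42 (SE 0.05, limma adjusted p = 5.1e-05), a 1.34-fold lower level that did not reach the fold threshold. The difference kept its sign in all 20 alternative analyses, with limma adjusted p from 1.53e-05 to 0.0325. Its size varied, with log2 differences from -0.441 to -0.225.

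REL encodes c-Rel, a subunit best known from lymphoid cells. It was at 546 and 637 CP20M with DMSO in H2052 and at 368 and 442 with palbociclib. In MSTO-211H, where the difference was widest, DMSO gave 782, 912 and 698 and palbociclib 420, 431 and 475. These groups were apart by a clear gap in both lines. H28 had 560, 810 and 820 with DMSO and 560, 624 and 555 with palbociclib, and its first pair was equal. H2452, the line with the least REL, had 242, 364 and 286 with DMSO and 252, 324 and 279 with palbociclib, which overlapped. Over the 11 pairs, 9 were lower, 1 was higher and 1 was equal, and the log2 difference was -0.42 (SE 0.10, limma adjusted p = 0.00466). The adjusted p was 0.0936 with median-of-ratios scaling, 0.0663 with upper-quartile scaling and 0.0942 with the 4 line means as units. In the annotation used here the lncRNA AC010733.2 (ENSG00000267520, chr2:60925909-60931610) lies on the same strand and shares 5702 of the 17129 exon bases of REL, and how reads in the shared part were assigned is not given in the sources used here.

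RELA encodes p65, the main activating subunit. Its medians were 1524 CP20M with DMSO, in a range of 894 to 2215, and 1511 with palbociclib, in a range of 1024 to 2399. The ranges overlapped almost fully, and the within-pair differences were small. It was higher in 9 of 11 pairs, with a log2 difference of 0.14 (SE 0.06, limma adjusted p = 0.069, 95% interval 0.01 to 0.26). With median-of-ratios scaling the difference was 0.33 and the adjusted p 0.000951. Without the first MSTO-211H pair it was 0.17 (adjusted p = 0.0207). RELA passed FDR in only 3 of 20 alternatives, with limma adjusted p up to 0.328 and log2 differences from 0.11 to 0.331.

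NFKB2 encodes p100, the precursor of p52, and RELB its partner in the non-canonical arm. NFKB2 ranged from 847 to 3224 CP20M with DMSO and from 834 to 3979 with palbociclib, was higher in 6 pairs and lower in 5, and had a log2 difference of 0.06 (95% interval -0.15 to 0.27). RELB ranged from 399 to 1208 CP20M with DMSO and from 437 to 961 with palbociclib, was higher in 5 pairs and lower in 6, and had a log2 difference of -0.08 (95% interval -0.36 to 0.21). Neither passed the test (limma adjusted p = 0.631 and 0.654), and the sign of the RELB difference turned with the scaling. The highest RELB value, 1208, was in the second DMSO library of MSTO-211H, which also held the highest value of its group for 8 of the 10 genes.

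NFKBIA, which encodes IkBα, was lower after palbociclib, most of all in H2452. There DMSO gave 972, 1194 and 1104 CP20M and palbociclib 495, 624 and 523, with no overlap. H2052 had 678 and 972 with DMSO and 556 and 618 with palbociclib. MSTO-211H had 1567, 2903 and 1900 with DMSO and 1338, 1335 and 1505 with palbociclib. The groups were again apart in both lines. H28 went its own way, with 919, 1114 and 1202 against 931, 866 and 1408, where 2 of 3 pairs were higher. Over the 11 pairs 9 were lower, and the log2 difference was -0.52 (SE 0.12, limma adjusted p = 0.00395), a 1.43-fold lower level that was under the fold threshold. The adjusted p was 0.0636 with median-of-ratios scaling and 0.0709 with line means as units. Without the third H28 pair NFKBIA was called lower, with a log2 difference of -0.59.

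NFKBIZ encodes IkBζ, a nuclear IkB protein that modulates NF-kB targets such as IL6. In H2052 it was at 390 and 652 CP20M with DMSO and 715 and 984 with palbociclib. H2452 had 409, 631 and 468 with DMSO and 539, 781 and 641 with palbociclib. Each pair of both lines was higher, although the groups overlapped in H2452. H28 had by far the most, 1459, 4404 and 3324 with DMSO and 1687, 4027 and 1897 with palbociclib. MSTO-211H had 203, 389 and 492 with DMSO and 654, 318 and 850 with palbociclib, the second pair being lower. Over the 11 pairs 8 were higher, with a log2 difference of 0.36 (SE 0.17) that did not pass (limma adjusted p = 0.0951). FDR was passed in only 3 of 20 alternatives. These were median-of-ratios scaling (0.56, limma adjusted p = 0.0271), upper-quartile scaling (0.53, adjusted p = 0.0364) and the fit without the third H28 pair (0.48, adjusted p = 0.0212). Over the 20 alternatives the adjusted p reached 0.195, with log2 differences from 0.235 to 0.557.

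TNFAIP3, which encodes A20, was the gene of the set that rose. H2052 had 1684 and 1918 CP20M with DMSO and 4020 and 5161 with palbociclib. MSTO-211H had 330, 589 and 605 with DMSO and 3486, 956 and 3983 with palbociclib, the second treated library lying well below the other two. Every treated library of these lines was above every control library. H2452 had 233, 365 and 326 with DMSO and 374, 417 and 508 with palbociclib. H28 had 171, 333 and 243 with DMSO and 416, 340 and 647 with palbociclib. In these lines too the groups did not overlap, by a margin of 9 CP20M in H2452 and 7 in H28. TNFAIP3 was higher in 11 of 11 pairs, and the log2 difference was 1.23 (SE 0.26, limma adjusted p = 0.00193), a fold of 2.35. All 20 alternatives kept the direction and an adjusted p under 0.05, with log2 differences from 1.02 to 1.42.

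TNFAIP2, an actin-linked protein induced by TNF, and BIRC3, the ubiquitin ligase cIAP2, did not pass the test. TNFAIP2 had a median of 3920 CP20M with DMSO (range 2127 to 11980) and 4895 with palbociclib (range 1742 to 17332). It was higher in 5 pairs and lower in 6, with a log2 difference of 0.10 (95% interval -0.19 to 0.38, limma adjusted p = 0.577). BIRC3 had a median of 412 CP20M with DMSO (range 148 to 2477) and 662 with palbociclib (range 63 to 2009). It was higher in 4 pairs and lower in 7, with a log2 difference of -0.24 (95% interval -0.67 to 0.19, limma adjusted p = 0.346). The intervals leave room for changes of either sign, and pairs of different lines went in opposite directions.

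**Figure D1:**
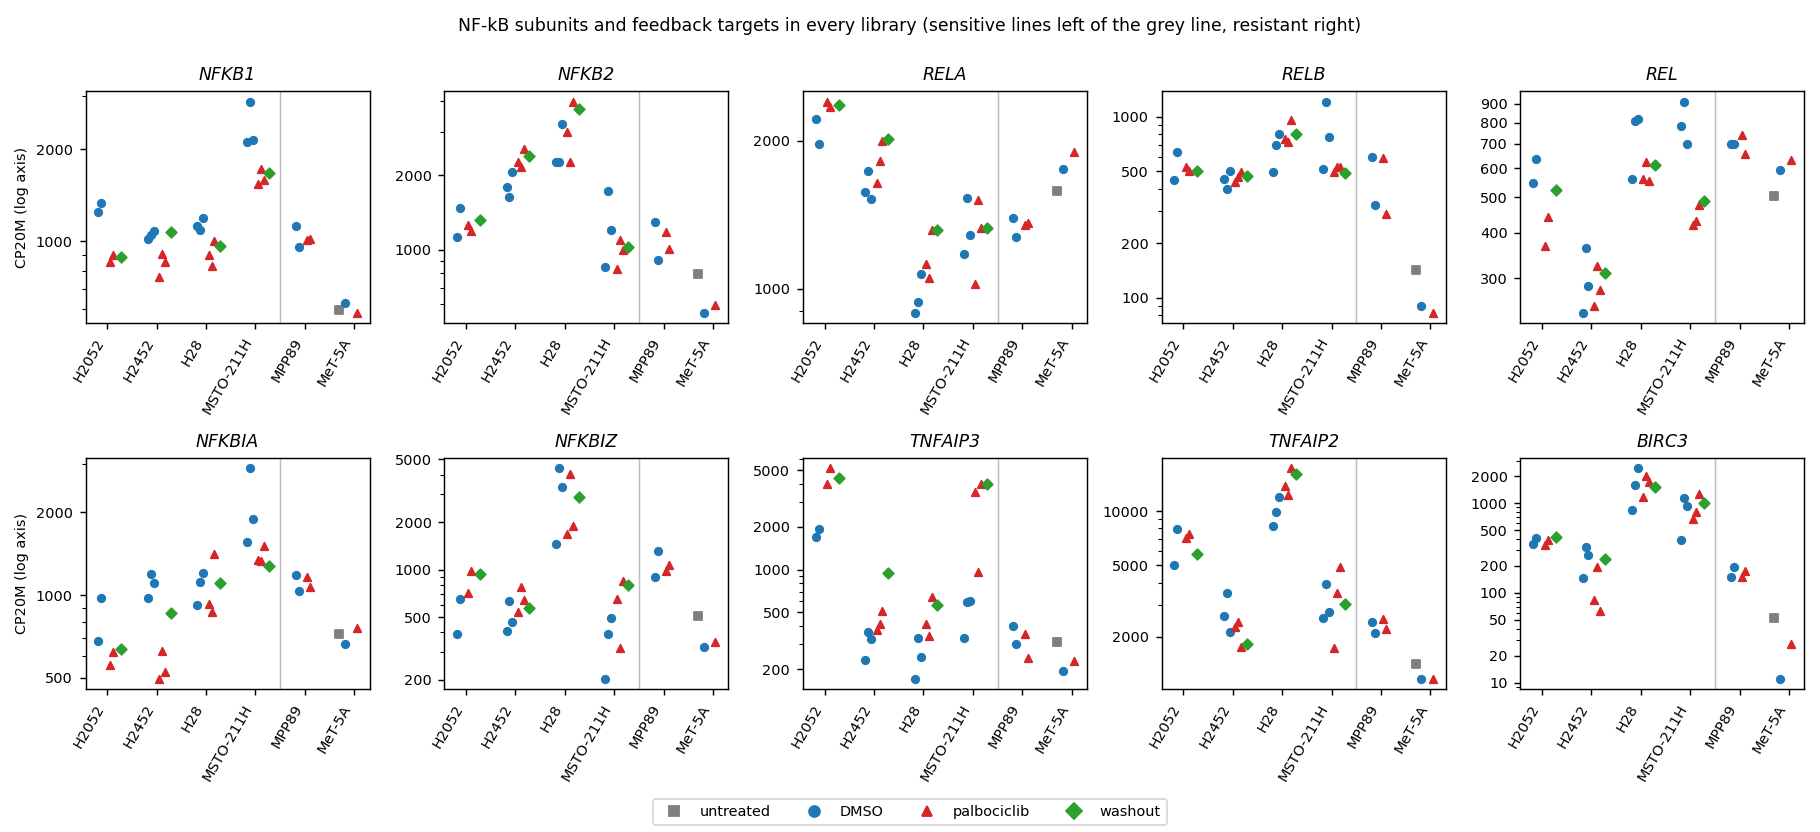
Level of each of the 10 genes in every library, in CP20M on a log axis, by cell line, with 1 point per library and the treatment shown by colour and shape. TNFAIP3 after palbociclib lay above DMSO in each of the 4 sensitive lines and NFKB1 lay below it, while the 2 resistant lines to the right of the grey line show overlapping or nearby points for both genes.

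Within single lines 0 to 2 of the 10 genes were called. In H2052 TNFAIP3 (log2 difference 1.34, limma adjusted p = 0.0359) and NFKBIZ (0.72, adjusted p = 0.0445) were called higher, where 4.67% of all genes were called higher and 13% lower. In H2452 NFKBIA was called lower (-0.98, adjusted p = 0.0123), where 6.04% of all genes were called higher and 10.8% lower. In MSTO-211H REL was called lower (-0.83, adjusted p = 0.0396), where 5.9% were called higher and 7.94% lower. The TNFAIP3 difference in MSTO-211H was the largest of the set at 2.25, but its spread between experiments was wide (SD 1.39, n = 3) and the limma adjusted p was 0.0693. In H28 limma called 0 of the 10 genes, against 5.89% of all genes higher and 7.34% lower, and 4 had an unadjusted p under 0.05.

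By FDR alone, NFKB1 was lower in each sensitive line, with a log2 difference of -0.55 for H2052 (limma adjusted p = 0.0412), -0.32 for H2452 (0.0338), -0.31 for H28 (0.0462) and -0.54 for MSTO-211H (0.0416). The share of all genes that were lower by FDR alone was 15.1%, 21.7%, 11.4% and 9.98%, in the same order. The NFKB1 result of each line lost its FDR under both other scalings, with adjusted p between 0.115 and 0.2005, although the direction stayed. Higher by FDR alone were NFKB2 (0.35, adjusted p = 0.0187) and NFKBIZ (0.38, adjusted p = 0.0255) in H2452 and TNFAIP2 (0.52, adjusted p = 0.0493) in H28, where 10.9% and 8.3% of all genes were higher. In H2052 and MSTO-211H the share of genes higher by FDR alone was 5.57% and 7.11%. Without the first H2452 pair the adjusted p of NFKBIA was 0.125, without the third it was 0.0889, and REL in MSTO-211H lost its call without any 1 of the 3 pairs. In each of these fits limma called 0 of 17803 genes, with 3385 to 6264 at an unadjusted p under 0.05, so they say nothing of the calls. The log2 differences themselves were -0.94 to -1.01 for NFKBIA and -0.71 to -0.97 for REL without a pair. On simulated data of H2052, which has 2 pairs, a log2 change of 1.5 was recovered in 0% of 200 genes, against 43.5% in MSTO-211H, 58.5% in H28, 65% in H2452 and 99.5% over the 11 pairs. The fit of the H2052 libraries themselves called 832 genes higher and 2310 lower, many more than the 200 genes changed in the simulation. The simulated shares therefore do not measure what the fits of the real libraries can detect.

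**Figure D2:**
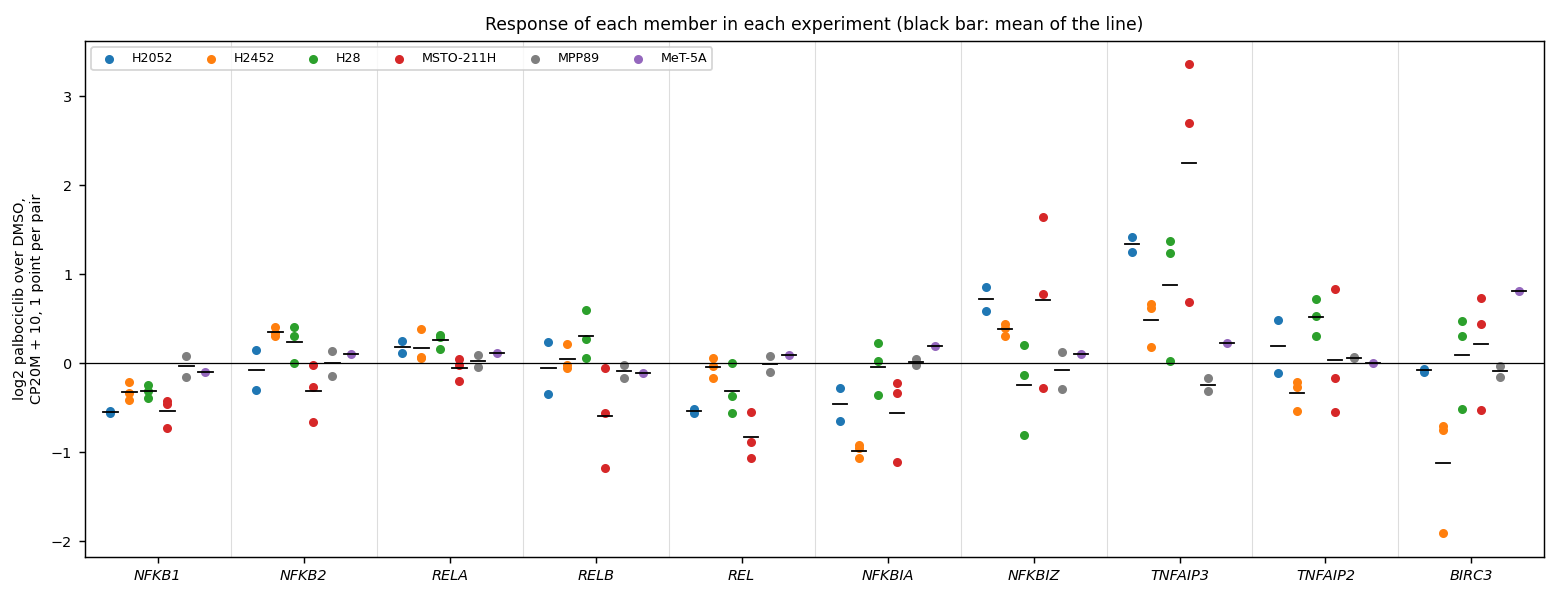
Log2 ratio of palbociclib to DMSO (CP20M + 10) in each experiment, 1 point per pair, coloured by line, with a black bar at the mean of each line. All points of the sensitive lines are below 0 for NFKB1 and above 0 for TNFAIP3, the MSTO-211H points of TNFAIP3 span from 0.69 to 3.36, and the H2452 points of NFKBIA form a tight group near -0.98.

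In the resistant lines none of the 10 genes passed. In MPP89 TNFAIP3 was at 400 and 299 CP20M with DMSO and at 355 and 238 with palbociclib, and NFKB1 at 1124 and 961 against 1011 and 1016. In the single MeT-5A pair TNFAIP3 was at 193 CP20M with DMSO and 227 with palbociclib, and NFKB1 at 627 and 585. BIRC3 was at 11 and 27 CP20M in that pair, a log2 difference of 0.82 with no replicate. Limma called 0 of the 10 genes in MPP89 and 0 over the 3 resistant pairs, 0 had an unadjusted p under 0.05 in either fit, and 0% of all genes were called in each. Over the 3 resistant pairs the 95% interval of the log2 difference was -0.38 to 0.20 for TNFAIP3 and -0.20 to 0.08 for NFKB1, neither of which reaches the estimate of the sensitive lines. The responses of the classes were then compared directly. The difference of the log2 responses, sensitive minus resistant, was 1.32 for TNFAIP3 (SE 0.54, limma adjusted p = 0.126), -0.36 for NFKB1 (SE 0.11, adjusted p = 0.0524), -0.59 for NFKBIA (adjusted p = 0.143) and -0.45 for REL (adjusted p = 0.181). Limma called 0 of the 10, against 6.75% of all genes, with 4 at an unadjusted p under 0.05. A difference between sensitive and resistant lines in these genes was thus not shown with 3 resistant pairs. The NFKB1 difference passed FDR in only 3 of 22 alternatives. The limma adjusted p was 0.0436 without the second H2452 pair, 0.0488 without the third H28 pair and 0.0496 without the second MSTO-211H pair. Over the 22 alternatives it reached 0.518, with log2 differences from -0.41 to -0.144.

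An F test of the 4 line responses passed for REL (limma adjusted p = 0.0235), NFKBIA (0.0352) and NFKB2 (0.0363), 3 of 10 genes, where 37.1% of all genes passed. Over 19 alternatives, REL passed in 15 and NFKBIA and NFKB2 in 7 each, with adjusted p up to 0.101, 0.128 and 0.344. The REL response was -0.83 ± 0.26 (SD, n = 3) in MSTO-211H, -0.54 ± 0.03 (n = 2) in H2052, -0.31 ± 0.28 (n = 3) in H28 and -0.05 ± 0.11 (n = 3) in H2452. The NFKBIA response was -0.98 ± 0.07 in H2452, -0.56 ± 0.49 in MSTO-211H, -0.46 ± 0.26 in H2052 and -0.04 ± 0.30 in H28. H2452 was thus the line with the least response of REL and the largest of NFKBIA. The NFKB2 response was 0.35 ± 0.05 in H2452, 0.24 ± 0.21 in H28, -0.07 ± 0.32 in H2052 and -0.32 ± 0.32 in MSTO-211H, and the sign in H2052 turned under other scalings. BIRC3 was at 148, 323 and 265 CP20M in H2452 with DMSO and at 84, 194 and 63 with palbociclib, lower in 3 of 3 pairs, but its F test did not pass (limma adjusted p = 0.0508). The share of the 10 genes that passed was near that of all genes.

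Washout for 48 h in 1 experiment of each sensitive line left TNFAIP3 high. It was at 1918 CP20M with DMSO, 5161 with palbociclib and 4389 after washout in H2052. In MSTO-211H the values were 605, 3983 and 3977. In H28 they were 243, 647 and 561, and in H2452, where washout was the highest, 326, 508 and 943. TNFAIP3 after washout was above DMSO in 4 of 4 lines, with a log2 difference of 1.64 (SE 0.29, limma adjusted p = 0.0109). It was the 1 gene of 10 called higher, where 2.81% of all genes were called higher and 2.95% lower. Without the H2052 experiment the difference was 1.79 with an adjusted p of 0.0618, from 3 lines. Against palbociclib, the log2 difference was 0.11 (95% interval -0.54 to 0.76). By the labels, the DMSO and palbociclib libraries of these experiments are from day 10, without the added 48 h. Washout and the added time in culture thus cannot be told apart.

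The genes that were lower with palbociclib stayed below DMSO after washout in most lines. NFKB1 after washout was at 887 CP20M in H2052 and 1071 in H2452, and at 968 (H28) and 1669 (MSTO-211H), against 1336, 1083, 1189 and 2144 with DMSO in the same experiments. It was below DMSO in 4 of 4 lines, by -0.31 on the log2 scale (limma adjusted p = 0.0703), but in H2452 by only 12 CP20M. NFKBIA was at 635, 863, 1103 and 1278 in the same order, against 972, 1104, 1202 and 1900 with DMSO, also below in 4 of 4 lines (-0.41, adjusted p = 0.174). In H2452 it lay between the 523 CP20M of palbociclib and the DMSO value. In H28 palbociclib had given 1408 CP20M of NFKBIA, above DMSO. REL was at 524, 310, 611 and 489, above palbociclib in 4 of 4 lines and below DMSO in 3 (-0.27, adjusted p = 0.161). RELA was above DMSO in 4 of 4 lines, at 2361, 2011, 1317 and 1330 (0.25, adjusted p = 0.0742). These 4 differences did not pass. Against palbociclib limma called 0 of the 10 genes, 0 had an unadjusted p under 0.05, and 1.4% of all genes were called. The differences were 0.08 for NFKB1, 0.14 for REL and 0.04 for NFKBIA, with 95% intervals of -0.14 to 0.30, -0.13 to 0.41 and -0.38 to 0.46.

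**Figure D3:**
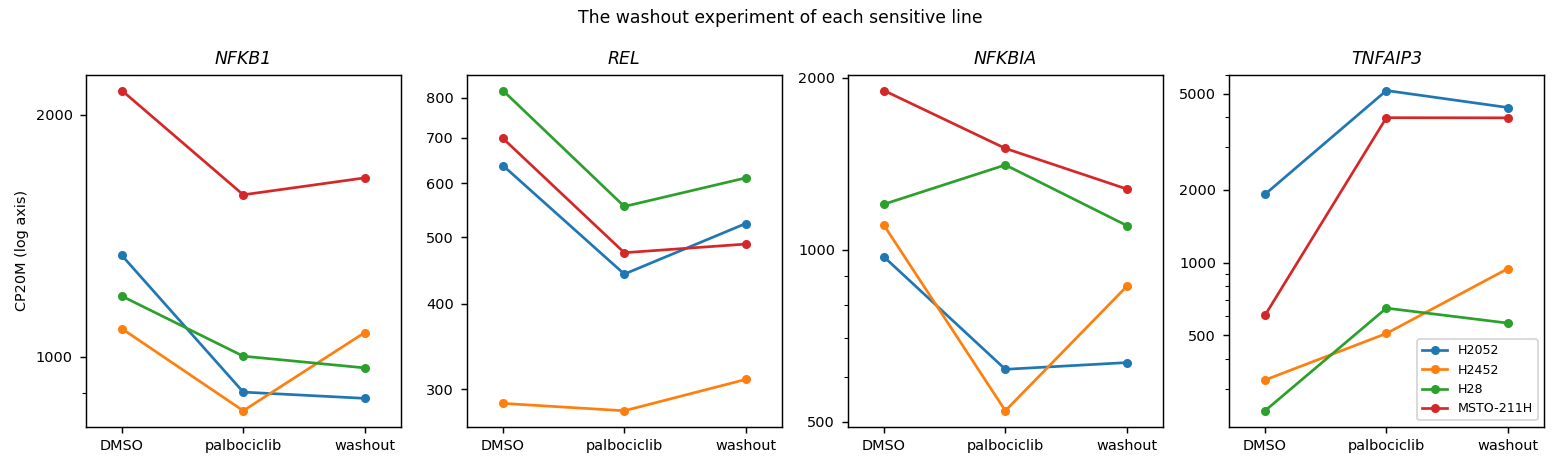
CP20M on a log axis of NFKB1, REL, NFKBIA and TNFAIP3 with DMSO, after palbociclib and after washout in the 1 experiment of each sensitive line that had all 3, with 1 line of points per cell line. TNFAIP3 stayed above its DMSO value after washout in all 4 lines, and NFKB1 stayed below its DMSO value, by 12 CP20M in H2452.

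With DMSO alone, the 6 lines differed in the level of every one of the 10 genes, as did 95.6% of all genes in the same F test. Over the 15 pairs of lines, 75 of 150 gene contrasts were called, against 48.8% for all genes. MSTO-211H had the most NFKB1 (2377 ± 425 CP20M, SD, n = 3) and NFKBIA (2123 ± 695), each above the next line (limma adjusted p = 0.000221 and 0.00657). H28 had the most NFKBIZ (3062 ± 1490) and TNFAIP2 (10058 ± 1845), each above the next line (adjusted p = 0.02003 and 0.0436), and the highest means of NFKB2 (2585 ± 553) and BIRC3 (1649 ± 814), which were not called against the next line (adjusted p = 0.0973 and 0.0632). H2052 had the most TNFAIP3, 1801 ± 166 (n = 2), well above the 508 ± 154 of MSTO-211H (adjusted p = 0.000305), and the highest mean of RELA (2090 ± 178), not separated from MeT-5A. The other neighbours in the order of TNFAIP3, from MSTO-211H through MPP89, H2452 and H28 to MeT-5A, were not called.

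With DMSO, MeT-5A (1 library) had the lowest level of 8 of the 10 genes, a count with no share of all genes beside it. For 3 of these, NFKB1, RELB and BIRC3, MeT-5A was called against the next line. Its untreated library, at 511 CP20M for NFKBIZ and 310 for TNFAIP3, lay above the DMSO means of H2452 and MSTO-211H for NFKBIZ, and of H2452 and H28 for TNFAIP3. RELB was at 142 CP20M without treatment, 90 with DMSO and 83 with palbociclib, against 326 to 1208 in the DMSO libraries of the other lines. BIRC3 was at 52, 11 and 27 CP20M in the same MeT-5A libraries, against 148 or more in the other DMSO libraries. The next line for both was MPP89 (limma adjusted p = 0.00308 for RELB and 0.00288 for BIRC3), with the single DMSO library of MeT-5A assumed to vary like the others. REL was lowest in H2452 (297 ± 61.8, adjusted p = 0.00126 against H2052) and RELA in H28 (968 ± 93.4), where the step to MSTO-211H was 0.45 on the log2 scale and not called. The mesothelial markers differed among the same lines, as given above, and their part in these levels was not tested.

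Exon length was taken as the union of all annotated exons of a gene, such as 2997 bases for RELB and 15679 for NFKB1. Values per kilobase thus compare genes only roughly. Per kilobase of this length, TNFAIP2 was the most abundant of the set in 4 of 6 lines, from 448 CP20M per kb in MPP89 to 1989 in H28. In MSTO-211H NFKBIA was above it, at 626 against 608 CP20M per kb, and in MeT-5A RELA, at 321 against 231. RELA was at 177 to 383 and NFKBIA at 196 to 626 CP20M per kb. REL was the least abundant subunit in all lines but MeT-5A, with 17.4 to 46.6 CP20M per kb. In MeT-5A RELB was lower, at 30.03 CP20M per kb against 34.6 for REL. The exon annotation of REL is the longest of the 10, 17129 bases, part of which it shares with AC010733.2.

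Other genes of the pathway were taken from lists by role. Of 7 IkB and IKK genes, 16 receptor adaptors and 7 genes of the non-canonical arm tested, 0 were called by limma in either direction, with median log2 differences of -0.04, -0.08 and -0.05 beside -0.11 for all genes. Of all genes, 5.58% were called higher and 9.37% lower, and by FDR alone 14.6% were higher and 33.7% lower. By FDR alone, 2 of the 7 IkB and IKK genes were lower, 3 of the 16 adaptors were higher and 2 lower, and 1 of the 7 non-canonical genes was higher. The widest of these differences were those of TAB1 (-0.55, limma adjusted p = 0.00011) and TRAF2 (-0.47, adjusted p = 7.9e-05), adaptors of the IL-1 and TNF receptor pathways, chosen after their values were seen. Of 9 other feedback inhibitors, 1 was called lower, TRAF1, an adaptor induced by NF-kB, at a mean of 105 CP20M with DMSO and 64.2 with palbociclib (log2 difference -0.71, limma adjusted p = 0.00127, lower in 11 of 11 pairs). By FDR alone 3 of the 9 were higher and 3 lower, beside the 14.6% and 33.7% of all genes. TNIP1, which encodes the A20-binding protein ABIN1, had a difference of 0.55 with an adjusted p of 0.00528 but was under the fold threshold.

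Of 23 other NF-kB target genes tested, 10 were called higher, against 5.58% of all genes, 1 was called lower, against 9.37%, and 12 were not called. Their median log2 difference was 0.55 beside -0.11 for all genes. The list held 26 genes and was drawn up with earlier results of these data known. ICAM1, VCAM1, IL6, CXCL8, CCL2 and CCL5 are reported by the study itself as up-regulated by palbociclib, in a larger set of sensitive lines that includes patient-derived ones. A share above that of all genes was thus likely from the choice of genes and is no independent support. ICAM1, an adhesion molecule for leukocytes, had a mean of 2421 CP20M with DMSO and 8265 with palbociclib over the 11 pairs (log2 difference 1.68, SE 0.21, limma adjusted p = 3.33e-05, higher in 11 of 11 pairs). CCL2, a monocyte chemokine, had a log2 difference of 1.72 averaged within pairs (SE 0.53, limma adjusted p = 0.01602) and was higher in 8 of 11 pairs. Its means over the 11 pairs, 249 and 360 CP20M, pool lines of very different levels. VCAM1 was low, at means of 21.4 and 113 CP20M (1.39, adjusted p = 0.00876), and also higher in 8 of 11. GADD45B, a stress-induced growth arrest gene, was the 1 called lower (-0.66, adjusted p = 0.000256), in 10 of 11 pairs. The called genes also include IL6, CXCL8, CCL20, CSF2, CXCL1, SOD2 and CFLAR. CCL5 was not called (0.64, limma adjusted p = 0.13). After washout 3 of the 23 were called higher than DMSO, CXCL8 (1.09, adjusted p = 0.0222), ICAM1 (1.49, 0.0104) and CCL20 (1.54, 0.0389), where 2.81% of all genes were. Against palbociclib 0 of 23 were called, where 1.4% of all genes were. Between sensitive and resistant lines the response of 2 was called higher and of 1 lower, against 6.75% of all genes in either direction.

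**Figure D4:**
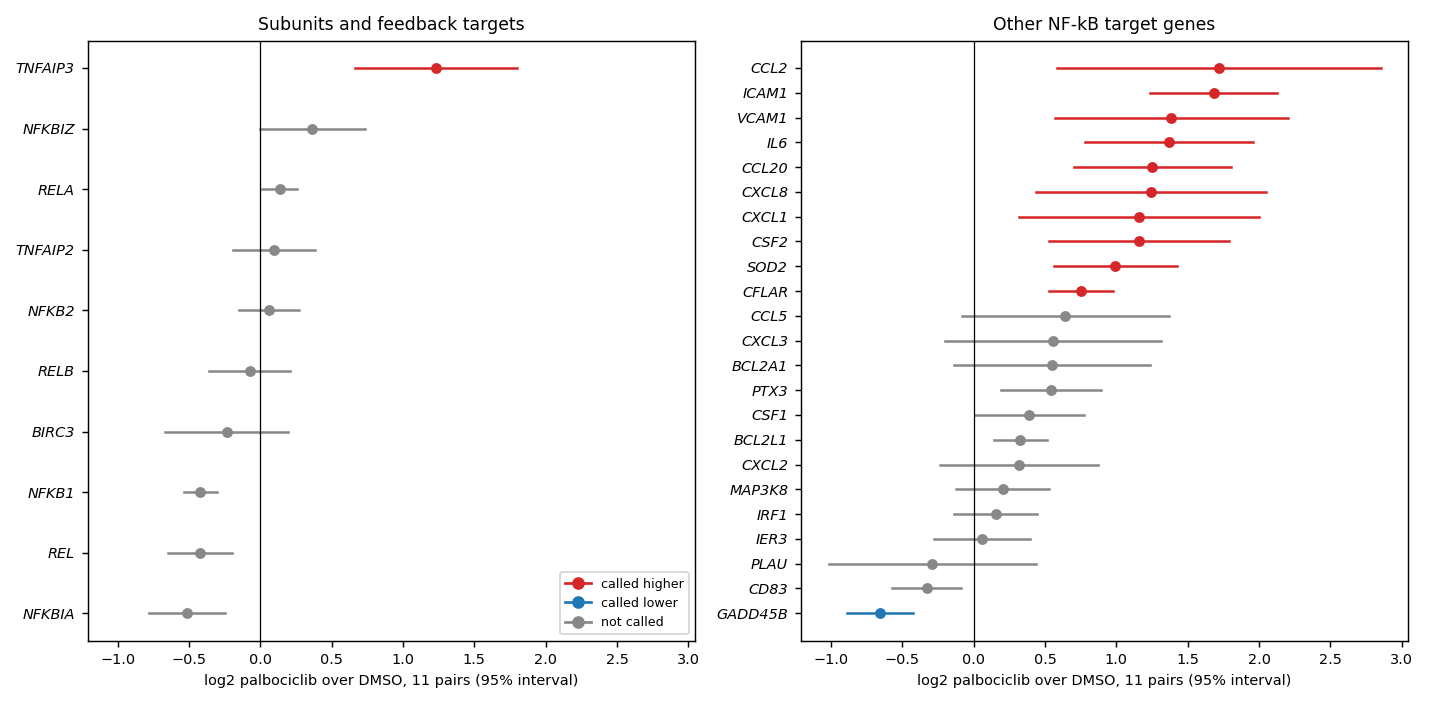
Log2 difference between palbociclib and DMSO over the 11 pairs of the sensitive lines with its 95% interval, for the 10 genes on the left and for 23 other NF-kB target genes on the right, coloured by whether the gene was called. TNFAIP3 (1.23) is the 1 gene called on the left, while 10 of the genes on the right were called higher and GADD45B (-0.66) lower.

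The genes whose pattern was most like each of the 10 were found by Pearson r over the 33 libraries, with each line centred on its mean. These libraries share lines and treatments, and r is given as a description. NFKB2 and RELB, the partners of the non-canonical arm, were nearest to each other (r = 0.80). AC078923.1 was among the nearest of TNFAIP3 (r = 0.91), those of NFKB1 were DCP1A (0.91) and AL132780.3 (0.90), and those of NFKBIA were NTHL1 (0.85) and MZT2A (0.84). NFKBIZ was nearest to RBMS2 (0.78) and to the chemokine gene CXCL1 (0.76). REL was nearest to AC010733.2 (0.97), the lncRNA that overlaps it, and then to STX17 (0.86). RELA was nearest to VAMP2 (0.78) and SNORA74B (0.73), TNFAIP2 to TCEA2 (0.75) and LINC02298 (0.71), and BIRC3 to FXYD2 (0.71) and CNIH4 (0.69). After its partner, NFKB2 was nearest to BACH2 (0.78) and RELB to PIK3CD (0.71).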

How the data were processed

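Per the labels, directional libraries were sequenced in paired-end mode, trimmed with Trimmomatic 0.36, aligned with STAR 2.5.3 to GRCh38 with the Ensembl 90 annotation and counted with HTSeq 0.9.1. The authors called genes with DESeq2. The deposited values are a normalized score, counts per 20000000 reads rounded up by the authors to whole numbers, so no count model was used here. Genes with at least 100 CP20M in 1 or more of the 33 libraries were kept (17803). log2(CP20M + 10) was fitted with limma 3.58.1 (trend) in R 4.3.3, with Benjamini-Hochberg FDR over all genes. Except for levels with DMSO, the experiment was a block, as in the study's methods: same-numbered DMSO and palbociclib libraries deviated together, with r from 0.18 to 0.78 across genes. No 2 replicates shared more than 4.33% of values. Alternatives were a fit without the block, pseudocounts of 1 and 50, the filter dropped or applied to the libraries of a fit, 2 other scalings (median-of-ratios, upper-quartile), no trend, line means, and each pair left out. The 10 genes are all reported, with up to 3 called genes per direction from each list. The genes, lists and tests were chosen with earlier results of these data known. Functions were tested on simulated data. Positions are from GENCODE 44, drawings from matplotlib 3.10.9. One neighbouring pattern is not reported here.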

Additional observations from a re-analysis of the deposited data

Results flagged for a closer look

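The responses to palbociclib of 3 genes differed among the 4 sensitive lines by limma's F test of the interaction. REL had an adjusted p of 0.0235, with its largest decrease in MSTO-211H and almost none in H2452. NFKBIA had an adjusted p of 0.0352, with its largest decrease in H2452 and almost none in H28. NFKB2 had an adjusted p of 0.0363, with higher values in H2452 and H28 and lower ones in MSTO-211H. With 37.1% of all genes passing the same test, 3 of 10 is close to the background. Over 19 alternatives REL passed in 15, NFKBIA in 7 and NFKB2 in 7.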

How the results depend on the processing

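Over the 11 pairs, TNFAIP3 was called higher in every alternative that was run, and NFKB1 kept an FDR under 0.05 in every one. With the 4 line means as units 2 genes instead of 4 had an FDR under 0.05. Leaving out a pair gave 0 or 1 gene called lower, the 1 being NFKBIA. The RELB difference was 0.118 with median-of-ratios and 0.095 with upper-quartile scaling, and between -0.143 and 0.035 without a pair, turning above 0 without the second of MSTO-211H.

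Within lines the counts of the 10 genes moved with the setting. H2052, where 832 of all genes were called higher and 2310 lower, had 1 of the 10 called with pseudocount 1 (395 and 790 of all genes) or no filter (83 and 201), and 0 without a trend, where 0 of 17803 genes were called. H2452 had 2 with pseudocount 50, the filter within the fit, or either other scaling, and 0 to 1 without a pair. H28 had 1 with the filter within the fit or median-of-ratios scaling. MSTO-211H had 2 with the filter within the fit, 0 with no filter or either other scaling, and 0 without any pair, where 0 of 17803 genes were called. The F test among lines gave 1 gene with no filter, no trend or either other scaling, and 0 to 4 without a pair. With median-of-ratios and upper-quartile scaling, NFKB2 in H2052 was at 0.24 and 0.285, REL in H2452 at 0.147 and 0.135, and NFKBIA in H28 at 0.096 and 0.014. Without a pair, REL in H2452 ranged from -0.099 to 0.011 and NFKBIA in H28 from -0.171 to 0.122. Leaving out a pair of H2052 or MPP89 leaves no residual degrees of freedom and was not run.

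With no replicate block, H2052 had 1 gene called, the F test gave 0, and washout against DMSO gave 0, where TNFAIP3 was 1.64 with an adjusted p of 1. In that washout fit limma called 0 of 17803 genes, with 377 at an unadjusted p under 0.05. The block changed the count by more than 1.5 times in no other comparison.

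Without a line, washout against DMSO had 0 to 1 gene called, 0 without H2052. Against palbociclib, with median-of-ratios and upper-quartile scaling, NFKB1 was at -0.061 and -0.119, NFKBIA at -0.097 and -0.155, TNFAIP3 at -0.029 and -0.087, and REL at -0.054 with upper-quartile scaling. Without a line these ranged from -0.001 to 0.121 for NFKB1, -0.182 to 0.172 for NFKBIA and -0.146 to 0.225 for TNFAIP3. Between lines in DMSO, 45 to 81 contrasts were called without a library, 45 without that of MeT-5A, which leaves out its 5 pairs.

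The authors rounded values up, so a gene near 0 carries an error of up to 1 CP20M. MeT-5A has 1 pair and its response has no replicate check. A transcript level says nothing of the location or activity of the NF-kB proteins.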

Other observations

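The libraries of 1 group differed from each other across most of these genes. In MSTO-211H with DMSO, the first library held the lowest value of its group for 9 of the 10 genes and the second the highest for 8. In H28 with DMSO, the first library was lowest for 8 genes and the third highest for 8. In H2452 with DMSO, the first was lowest for 6 and the second highest for 7. The second MSTO-211H palbociclib library had 956 CP20M of TNFAIP3 and 318 of NFKBIZ, and the other 2 had 3486 and 3983, and 654 and 850. How many of all genes were at an extreme in the same libraries is not given, so the pattern is not shown to be particular to the 10 genes. What sets these libraries apart was not tested.

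Summed over the 6 leukocyte markers, H2452 was at 1288 to 1601 CP20M with DMSO and 1851 to 2389 with palbociclib, mostly CD68 and CD14, while CD3E was 0 and PTPRC at most 2. Summed over the 8 mesothelial markers, MSTO-211H was at 41993 to 56743 CP20M with DMSO and 111273 to 140604 with palbociclib, mostly KRT8 and KRT18. The part of these in the values of the NF-kB genes was not tested.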
